A study of Rattus norvegicus with 10 samples.

Results

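Genes of the ubiquitin-proteasome system were compared in rat pancreatic islets that had received an adenovirus carrying Nkx6.1 or a control adenovirus. The group was chosen by symbol, as every gene whose platform annotation begins with Psma, Psmb, Psmc, Psmd, Psme, Psmf, Anapc, Ube2 or Cul with a digit, without Psmb8 and Psmb9, and with a value in at least 3 samples of each virus group. The array held 71 such genes on 83 probes, and 62 of them had enough values, out of 9974 genes tested in all. By role these were 18 E2 ubiquitin-conjugating enzymes, 5 Anapc subunits of the anaphase-promoting complex (APC/C), 5 cullins, 6 alpha and 7 beta subunits of the 20S core, 6 ATPases of the 19S regulatory particle and 12 other Psmd genes, which encode its remaining subunits and some of its assembly chaperones, and 1 subunit of the 11S activator. The prefixes also took in Psmc3ip, a recombination factor, and Ube2cbp, now named Ube3d, which are neither proteasome subunits nor E2 enzymes and were kept apart from the subcomplexes.

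Ubiquitin is passed from an activating enzyme (E1) to a conjugating enzyme (E2) and, with a ligase (E3), onto a target protein. Cullins are the scaffolds of a large class of ligases, and the APC/C is a ligase that drives cells out of mitosis by marking cyclins and securin. Proteins that carry ubiquitin chains are unfolded by the 19S particle and cut by the beta subunits of the 20S core, a route that in islet cells also clears misfolded secretory proteins.

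The islets came from male Sprague-Dawley rats of about 250 g, with 5 samples per virus whose replicates stand for separate islet isolations. Whether islets of 1 isolation were divided between the viruses is not stated. Pools of about 200 islets in medium with 8 mM glucose and fetal calf serum were exposed for 18 h to 5E9 viral particles per ml and cultured for a further 60 h. Both viruses used the CMV promoter, so expression was not limited to β cells by the promoter, and they carried hamster Nkx6.1, a β-cell homeodomain transcription factor, or β-galactosidase (bGAL). All samples were thus exposed to virus, and no group without virus was analysed here. From each sample 500 ng of total RNA was amplified in repeated rounds, labelled with Cy5 and hybridised with a common Cy3-labelled rat reference RNA to a spotted oligonucleotide array.

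A value is the log2 ratio of a sample to the reference, centred on the median of the probe over the 10 samples, so it shows how samples differ and not how abundant a transcript is. For the same reason the labelled tissue could not be checked by the level of its hormone genes. A positive value thus lies above the median of the samples for that probe, and not above the reference. The ratio was read as islet over reference. No label states this, so the direction is likely rather than known, and every direction below rests on it. Between 27.3% and 32.5% of probes had no value in bGAL replicates 1, 2, 3 and 5 and Nkx6.1 replicate 1, called array set 1. In bGAL replicate 4 and Nkx6.1 replicates 2 to 5, called array set 2, between 0.816% and 9.13% had none. The virus group and the array set thus largely coincide, and differences within each set are given for the genes with the clearest differences. Nkx6.1 replicate 2 stood apart from the other samples. The median size of the 62 genes' values there was 0.93 in log2 units, while the 9 remaining samples gave 0.13 to 0.32, and over all genes tested it was 0.75 against 0.19 to 0.30. Where leaving it out moved the difference of a gene described here by more than 1.5 times, the value without it follows. In whole-islet RNA, fewer cells of a type and less RNA per cell cannot be told apart.

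The first question was whether transcripts of this system differed between islets with the Nkx6.1 virus and islets with the control virus. None of the 62 genes passed the threshold of 0.05 on the adjusted p of limma, which was computed over all genes. Of all genes tested 0.15% did, 0.11% higher and 0.0401% lower. At an unadjusted p under 0.05 there were 9 genes of the 62 (14.5%), 6 higher and 3 lower with the Nkx6.1 virus, where 9.65% of all genes tested lay under that value, 4.54% higher and 5.1% lower. The 6 were Ube2t, Ube2s, Ube2l3, Anapc10, Psmb5 and Psma7, and the 3 were Ube2q1, Cul1 and Psmd5. Among single probes 0 of 71 passed, against 0.0809% of all probes, and 8 of the 71 had an unadjusted p under 0.05, where 8.9% of all probes did. The median log2 difference of the 62 genes was −0.063, close to the −0.052 of all genes tested, and 0.046 without Nkx6.1 replicate 2. Of the 62, 24 were above 0 (38.7%). Among all genes 45.5% were, the share to set beside every count above 0 given below. A difference above 0.5 in size was found for 20 of the 62 genes (32.3%) and for 35.8% of all genes. The differences were measured closely enough in 31 of the 62 genes (50%) for the 95% interval to lie within 1 of 0 on the log2 scale, which is a change of less than 2-fold in either direction. Over all genes tested, 40.7% had such an interval. By role it was held by 11 of 13 core genes, 10 of 18 genes of the 19S particle, 3 of 5 APC/C genes, 1 of 5 cullins and 6 of 18 E2 genes.

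**Figure D1:**
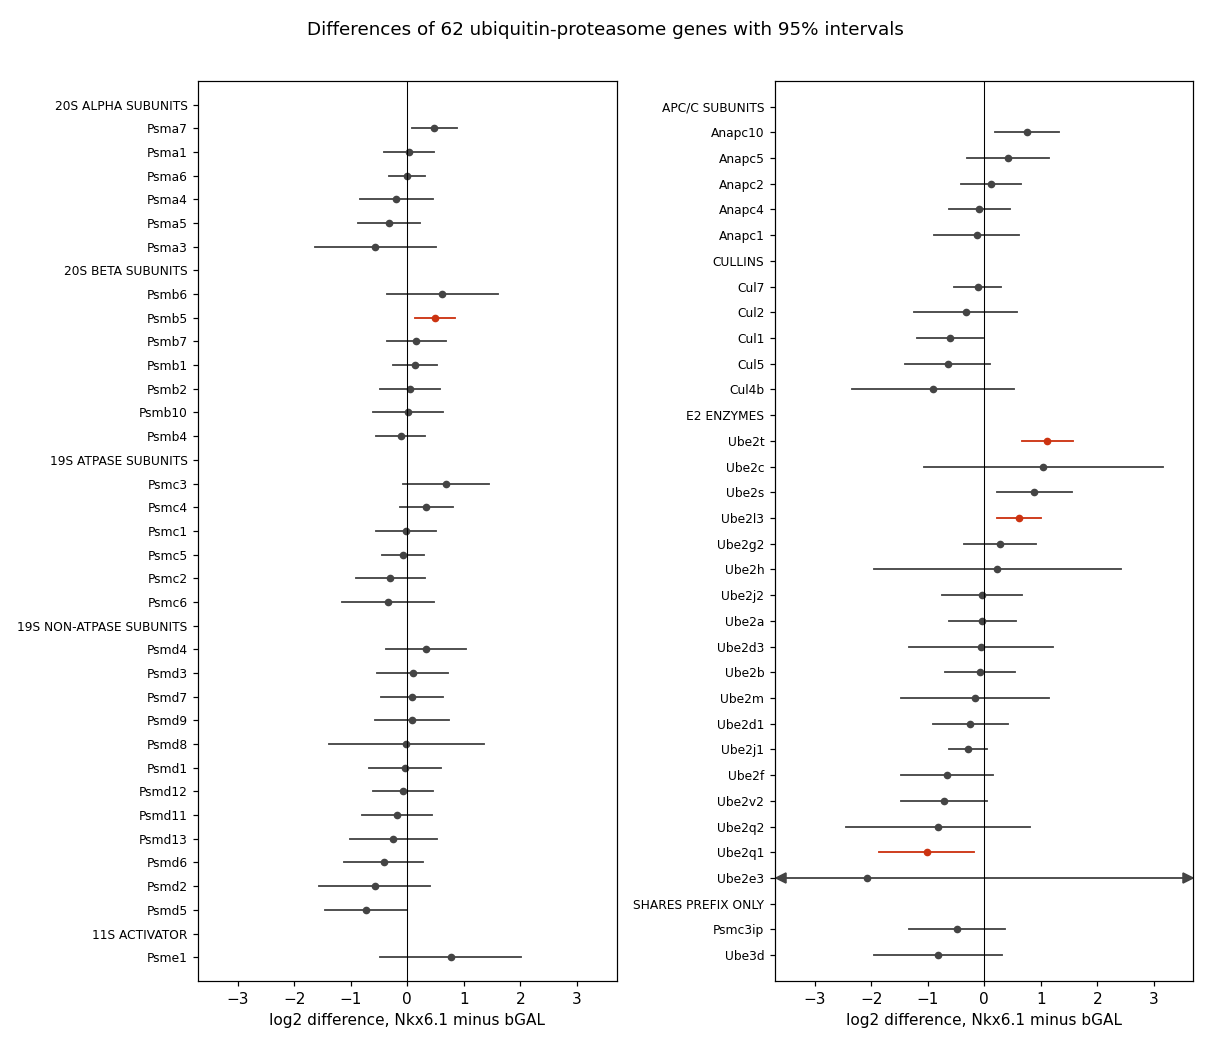
Log2 difference of each of the 62 genes (Nkx6.1 minus bGAL, x axis) with its 95% interval from limma, n = 5 per group, ordered by size within each subcomplex. Red marks the 4 genes whose groups did not overlap, Ube2t, Ube2l3 and Psmb5 to the right of 0 and Ube2q1 to the left. Arrowheads mark an interval that runs beyond the axis (Ube2e3).

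In 3 of the 62 genes every Nkx6.1 sample lay above every bGAL sample (Ube2t, Ube2l3 and Psmb5), and in 1 every Nkx6.1 sample lay below (Ube2q1). These are 4.84% and 1.61% of the 62, and over all genes tested the same held for 2.02% upward and 1.91% downward. With array weights, by which limma counts variable samples less, these 4 of the 62 passed the threshold, as did 577 of all 9974 genes. At an unadjusted limma p under 0.05 with these weights lay 32.3% of the 62 and 29.1% of all genes.

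**Figure D2:**
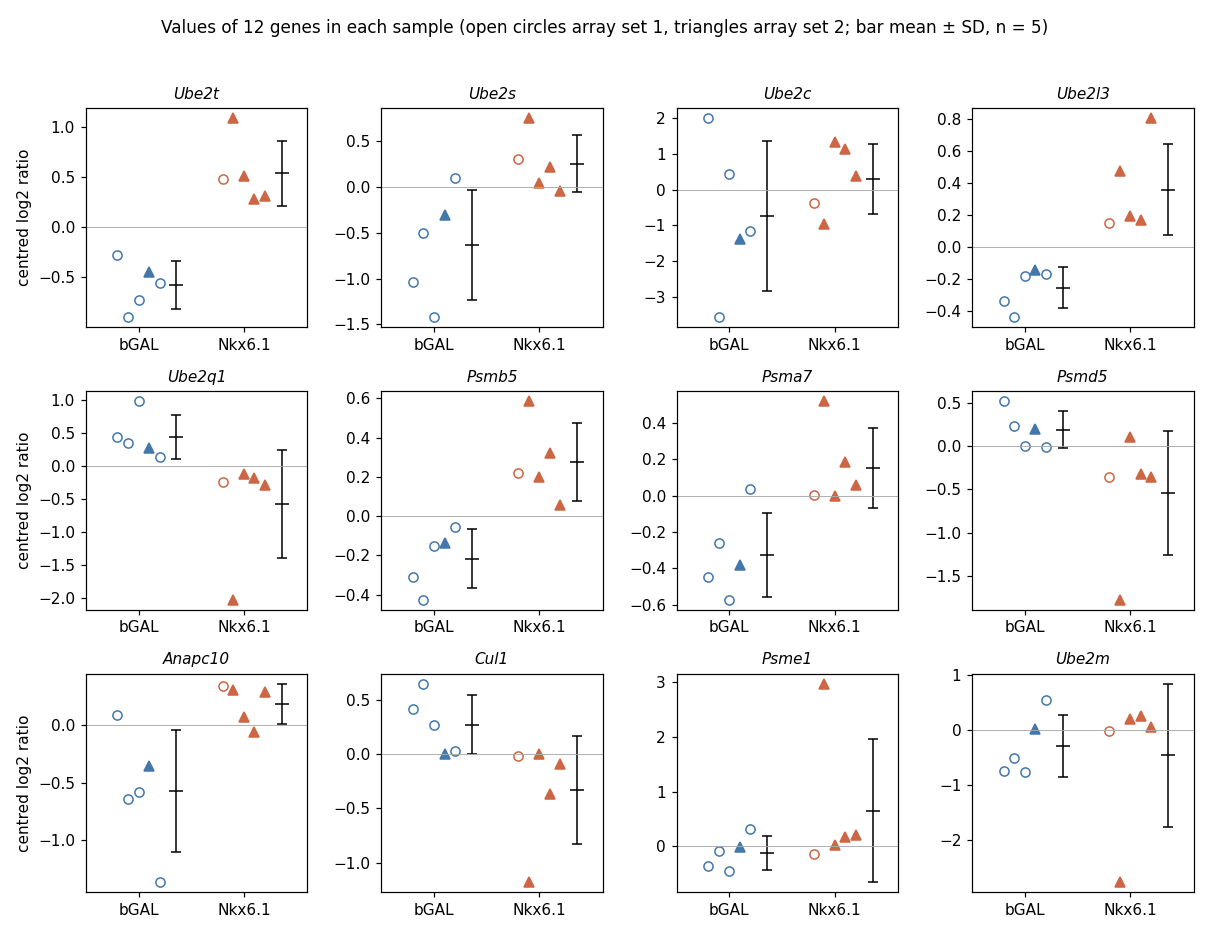
Centred log2 ratio (y axis) of 12 genes in each of the 10 samples. Open circles are array set 1, triangles array set 2, and the bars give the mean and SD of each group (n = 5). The groups are separate for Ube2t, Ube2l3, Ube2q1 and Psmb5, and single triangles far from the rest of the Nkx6.1 group in Ube2q1, Psmd5, Psme1 and Ube2m are Nkx6.1 replicate 2.

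Among the E2 enzymes, the largest difference relative to its error was that of Ube2t, the conjugating enzyme of the Fanconi anaemia DNA repair pathway, which is known as a transcript of dividing cells. Its centred log2 ratio was −0.28, −0.90, −0.73, −0.44 and −0.56 in bGAL replicates 1 to 5 and 0.48, 1.09, 0.51, 0.28 and 0.31 in Nkx6.1 replicates 1 to 5. The groups did not overlap, so with values centred on the median all Nkx6.1 samples stood above 0 and all bGAL samples below it. The log2 difference was 1.12 ± 0.20 (limma estimate ± SE, 95% interval 0.66 to 1.57, adjusted p = 0.097), or 2.17-fold, with group means of 0.53 ± 0.32 against −0.58 ± 0.24 (SD, n = 5). The exact two-sided permutation p was 0.0079, the smallest that 5 against 5 samples can give. Ube2l3, Psmb5 and Ube2q1, whose groups also did not overlap, had the same value. This p is not adjusted for the number of genes and takes no account of the array sets. The log2 difference of Ube2t was 1.10 in array set 1 alone and 0.99 in array set 2 alone. With Nkx6.1 replicate 2 left out it was 0.98 and passed the threshold (limma adjusted p = 0.044).

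Ube2s and Ube2c encode the pair of E2 enzymes through which the APC/C builds its chains, Ube2c placing the first ubiquitin and Ube2s extending the chain. Ube2s stood at −1.03, −0.50, −1.42, −0.31 and 0.10 in bGAL replicates 1 to 5 and 0.31, 0.75, 0.042, 0.22 and −0.042 in Nkx6.1 replicates 1 to 5. Here bGAL replicate 5 lay above the lowest Nkx6.1 samples, so the groups overlapped. Its log2 difference of 0.89 ± 0.30 did not pass (SE, limma adjusted p = 0.44), and was 1.02 in array set 1 alone and 0.55 in array set 2 alone.

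The values of Ube2c were 2.01, −3.57, 0.43, −1.39 and −1.16 in bGAL replicates 1 to 5 and −0.37, −0.95, 1.34, 1.16 and 0.37 in Nkx6.1 replicates 1 to 5. They ranged so widely among the bGAL samples, from the lowest to the highest value of all 10, that the log2 difference of 1.05 had a 95% interval of −1.06 to 3.15. Without bGAL replicate 2 the difference of Ube2c was 0.34, and without Nkx6.1 replicate 2 it was 1.36. It was 0.20 in array set 1 alone and 1.87 in array set 2 alone.

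Some genes of mitosis rose with the Nkx6.1 virus. A mitosis list, chosen with earlier results of these data known, is described by counts only. Of its 28 measured genes, 8 passed the threshold upward, where 0.11% of all genes tested did, and none downward. The list mean per sample was between 0.26 and 0.91 in the Nkx6.1 samples and between −0.86 and −0.37 in the bGAL samples. With the array set term 3 of the 28 passed, with the replicate block none did, and 2 to 5 did without any 1 of bGAL replicates 1, 2, 3 and 5 and Nkx6.1 replicates 1, 3, 4 and 5, while the median log2 difference of the list, 1.34 over all samples, was 1.68 in array set 1 and 1.43 in array set 2. Markers of macrophages and leukocytes stood the other way, with 0 of 12 measured markers above 0, where 45.5% of all genes tested were. None passed the threshold, and 4 of the 12 were lower at an unadjusted limma p under 0.05, where 5.1% of all genes were. Their list mean was between −0.68 and −0.37 with the Nkx6.1 virus and between 0.22 and 0.76 with the control virus. In other cell type lists 1 of 7 stellate and fibroblast markers and 6 of 7 acinar markers were above 0. So were 13 of 19 islet endocrine and 5 of 11 neuronal and secretory markers. For duct and endothelial markers it was 2 of 5 and 1 of 3, and no marker of these lists passed. The part of mitosis or of any cell type in the values of Ube2t, Ube2s and the other genes described here was not tested.

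Ube2l3 encodes an E2 that works with ligases of the HECT and RBR classes, such as parkin. It stood at −0.34, −0.44, −0.18, −0.15 and −0.17 in bGAL replicates 1 to 5 and 0.15, 0.47, 0.19, 0.17 and 0.80 in Nkx6.1 replicates 1 to 5. The groups did not overlap, with Nkx6.1 replicate 5 the highest. The log2 difference was 0.61 ± 0.18 (SE, limma adjusted p = 0.34), or 1.53-fold, and 0.43 in array set 1 alone and 0.56 in array set 2 alone.

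Ube2q1, an E2 of the less studied Q family, was the only gene of the 62 with every Nkx6.1 sample below every bGAL sample. Its values were 0.44, 0.35, 0.98, 0.28 and 0.13 in bGAL replicates 1 to 5 and −0.25, −2.03, −0.13, −0.18 and −0.30 in Nkx6.1 replicates 1 to 5. The lowest by far was Nkx6.1 replicate 2. The log2 difference of −1.01 ± 0.38 did not pass (SE, limma adjusted p = 0.48) and was −0.65 without that sample, with −0.72 in array set 1 alone and −0.94 in array set 2 alone.

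The other 14 E2 enzymes had log2 differences from −2.07 (Ube2e3) to 1.05 (Ube2c). Over all 18 the median was −0.064 with 6 above 0, and within array sets 1 and 2 it was 0.30 and −0.14. Array set 2 holds Nkx6.1 replicate 2, whose own median over the E2 genes was −0.87. Without that sample the median difference was 0.18. Ube2m, which conjugates the ubiquitin-like protein NEDD8 to cullins, had a difference of −0.16 that turned to 0.42 without Nkx6.1 replicate 2, which stood at −2.79. Ube2f, the NEDD8 enzyme that serves Cul5, had a difference of −0.66 ± 0.37 (SE, limma adjusted p = 0.55) that was −0.33 without that sample. Ube2v2, an inactive E2 variant that partners the active enzyme Ube2n, had one of −0.71 ± 0.34 (SE, adjusted p = 0.54). Ube2f, Ube2v2, Ube2e3 and Ube2q2 were named after their values were seen.

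Some E2 probes carried little information. Ube2d1, an E2 that serves many ligases, stood at one floor value of −0.12 in 5 of 10 samples and had a difference of −0.25, which was 0.023 without bGAL replicate 2. Ube2e3 ran from −4.97 to 12.14 within the bGAL group alone. Its difference of −2.07 was −0.96 without Nkx6.1 replicate 2, but 3.09 in array set 1 alone and 3.32 in array set 2 alone. For Ube2q2 the difference of −0.82 took in a probe with 5 values, 1 of them 11.1 in bGAL replicate 4, and the other 2 probes differed by −0.37 and 0.22.

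Promoter windows were read for the 4 genes of positive difference with the smallest p, Ube2t, Ube2l3, Psmb5 and Ube2s, from RefSeq (GRCr8, 250 bases before to 50 after the gene start, 5′ to 3′ on the gene's strand). They show which of 4 short motifs known from cell cycle or proteasome promoters lie near these starts. Capitals mark matches on either strand to TTTGAA (core of the cell cycle homology region), CCAAT (NF-Y), TGACNNNGC (core of the antioxidant response element, bound by Nrf factors) and GGCGGGAA (E2F-like). No matches overlapped in these windows. The windows are chr13:48954916-48955215 (plus strand) for Ube2t, chr11:97301695-97301994 (plus) for Ube2l3, chr15:32047330-32047629 (minus) for Psmb5 and chr1:78057409-78057708 (plus) for Ube2s.
Ube2t: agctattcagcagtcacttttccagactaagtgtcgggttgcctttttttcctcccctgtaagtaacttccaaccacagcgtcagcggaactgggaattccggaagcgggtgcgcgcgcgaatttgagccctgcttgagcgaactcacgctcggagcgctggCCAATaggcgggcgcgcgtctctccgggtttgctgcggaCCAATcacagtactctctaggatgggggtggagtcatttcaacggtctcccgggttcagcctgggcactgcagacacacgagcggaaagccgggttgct
Ube2l3: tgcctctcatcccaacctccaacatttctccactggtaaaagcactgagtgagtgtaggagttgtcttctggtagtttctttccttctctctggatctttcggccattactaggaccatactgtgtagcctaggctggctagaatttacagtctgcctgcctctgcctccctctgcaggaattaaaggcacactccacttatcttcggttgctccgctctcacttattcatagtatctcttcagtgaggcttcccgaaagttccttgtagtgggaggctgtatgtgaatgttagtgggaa
Psmb5: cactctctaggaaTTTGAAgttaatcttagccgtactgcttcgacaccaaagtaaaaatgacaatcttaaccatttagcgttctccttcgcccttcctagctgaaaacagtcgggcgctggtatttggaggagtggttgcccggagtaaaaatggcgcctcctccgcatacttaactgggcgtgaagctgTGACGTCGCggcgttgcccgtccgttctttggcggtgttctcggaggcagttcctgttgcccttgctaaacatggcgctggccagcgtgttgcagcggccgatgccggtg
Ube2s: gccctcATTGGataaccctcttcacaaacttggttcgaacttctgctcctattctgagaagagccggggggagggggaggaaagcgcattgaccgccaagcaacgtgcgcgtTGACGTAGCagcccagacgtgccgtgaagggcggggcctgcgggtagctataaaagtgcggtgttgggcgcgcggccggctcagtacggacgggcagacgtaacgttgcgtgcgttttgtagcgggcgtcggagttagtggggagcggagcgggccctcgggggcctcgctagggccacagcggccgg
Ube2t held 2 CCAAT matches, with their first bases at positions −88 and −49 relative to the gene start. Ube2s held 1 on the opposite strand and 1 match to TGACNNNGC, Psmb5 held 1 match to TGACNNNGC and 1 to TTTGAA, and Ube2l3 held none. Of the 62 genes, 55 had a window in the table. CCAAT was in 23 of these 55 windows (41.8%) and in 37.5% of all 33469 windows of this length, TTTGAA in 8 (14.5%) and 18.3%, TGACNNNGC in 12 (21.8%) and 12.1%, and GGCGGGAA in 5 (9.09%) and 1.91%. These are matches of letters, without a test, and do not show binding.

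The APC/C was measured through 5 genes of the Anapc series. Their log2 differences ran from −0.14 to 0.75 with a median of 0.11, 3 were above 0 and none passed. Anapc10, the subunit that helps hold substrates, stood at 0.086, −0.64, −0.58, −0.36 and −1.36 in bGAL replicates 1 to 5 and 0.33, 0.30, 0.063, −0.063 and 0.28 in Nkx6.1 replicates 1 to 5. The 5 Nkx6.1 samples lay within −0.063 to 0.33, and of the bGAL samples only replicate 1 reached into that range. The log2 difference was 0.75 ± 0.26 (SE, 95% interval 0.18 to 1.33, limma adjusted p = 0.44), and 0.96 in array set 1 alone and 0.50 in array set 2 alone.

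For Anapc5, a scaffold subunit, both probes gave a positive difference and the mean of 0.42 was 0.11 without Nkx6.1 replicate 2. Anapc2, the cullin-like catalytic subunit, differed by 0.11 and by −0.056 with a term for the array set. The largest subunit, Anapc1, differed by −0.14, and by 0.13 without Nkx6.1 replicate 2.

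APC/C subunits and regulators with other names were taken from a list of 12, of which 8 were measured. That list too was chosen with earlier results of these data known, and its counts are a description. Of these 8, 7 were above 0, where 45.5% of all genes tested were. Past the threshold 1 rose, where 0.11% of all genes did. This was Mad2l1, the spindle checkpoint protein that holds the APC/C inactive, with −0.39, −0.54, −0.99, −0.72 and −0.88 in bGAL replicates 1 to 5 and 0.45, 0.39, 0.87, 0.39 and 0.54 in Nkx6.1 replicates 1 to 5. The groups were apart by more than the spread of either, at 0.53 ± 0.20 against −0.70 ± 0.25 (SD, n = 5), and the log2 difference was 1.23 ± 0.18 (SE, limma adjusted p = 0.038). It was 1.14 in array set 1 alone and 1.27 in array set 2 alone, but the call was lost with the array set term (difference 1.21, limma adjusted p = 0.31), with the replicate block, and in 9 of 10 fits with a sample left out (limma adjusted p up to 0.15), the exception being Nkx6.1 replicate 2. Cdc20, which activates the APC/C in mitosis and is itself a transcript of dividing cells, had the larger difference of 2.33 ± 0.56 but also the wider spread, and did not pass (SE, limma adjusted p = 0.24). The subunit Cdc27 had a difference of 0.77 ± 0.22 (SE, adjusted p = 0.36). Cdc20 was 2.51 in array set 1 alone and 1.78 in array set 2 alone, and Cdc27 0.97 in array set 1 alone and 0.49 in array set 2 alone. These 3 were named for having the smallest p of the 8. In all 3 every Nkx6.1 sample lay above every bGAL sample, as held for 2.02% of all genes tested.

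All 5 measured cullins had log2 differences below 0, where 45.5% of all genes tested were above 0. They ran from −0.90 to −0.12 with a median of −0.60, and none passed. Cul1, the scaffold of the SCF ligases that mark cyclin-dependent kinase inhibitors, stood at 0.41, 0.65, 0.26, −0.0036 and 0.026 in bGAL replicates 1 to 5 and −0.016, −1.18, 0.0036, −0.36 and −0.096 in Nkx6.1 replicates 1 to 5. Its values were highest in bGAL replicates 1 to 3 and lowest in Nkx6.1 replicate 2. The log2 difference of −0.60 ± 0.26 (SE, limma adjusted p = 0.51) was −0.39 without that sample and −0.35 in array set 1 alone and −0.41 in array set 2 alone.

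Cul5, which works with SOCS-box proteins, stood at 1.06, 0.92, 0.92, −0.19 and −0.34 in bGAL replicates 1 to 5 and 0.020, −0.79, −0.020, −0.19 and 0.14 in Nkx6.1 replicates 1 to 5. Only bGAL replicates 1, 2 and 3 were high, and the other two bGAL samples lay among the Nkx6.1 samples. Cul4b, the scaffold of the DDB1 ligases, showed the same order, with 1.51 to 1.94 in bGAL replicates 1 to 3 and −1.20 in bGAL replicate 5. The log2 differences were −0.64 ± 0.34 and −0.90 ± 0.64 (SE, limma adjusted p = 0.54 and 0.59). With a term for the array set they were −0.32 and −0.26. Cul2, the scaffold of the von Hippel-Lindau ligase, differed by −0.33, by −0.00081 with that term and by −0.026 without Nkx6.1 replicate 2.

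In array set 1 alone the median of the cullins was −0.14 and in array set 2 alone −0.26, closer to 0 than over all samples. Without Nkx6.1 replicate 2 it was −0.39. By sample it ran from −0.34 to 0.74 in the bGAL group and from −1.16 to 0.14 in the Nkx6.1 group, so the groups overlapped. Of 27 measured cullin partners, F-box proteins and COP9 signalosome subunits, 9 were above 0 and none passed with limma, while 1 in each direction had an unadjusted p under 0.05. The lower of these was Cand1, which exchanges the substrate receptors of cullins. Its difference was −0.88 ± 0.31 on the log2 scale (SE, limma adjusted p = 0.46), with the smallest p of the 27. It was −0.52 in array set 1 alone and −0.66 in array set 2 alone. Every Nkx6.1 sample lay below every bGAL sample, as held for 1.91% of all genes tested. Cops6, a subunit of the signalosome that removes NEDD8 from cullins, had a difference of 0.43 ± 0.16 (SE, adjusted p = 0.48), and Cops7b one of −0.77 ± 0.34 (SE, adjusted p = 0.52). Cops7b was −0.53 in array set 2 alone and −0.48 without Nkx6.1 replicate 2. Its samples in array set 1 all stood at 0.27, so the difference of −0.00023 there carries little information.

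**Figure D3:**
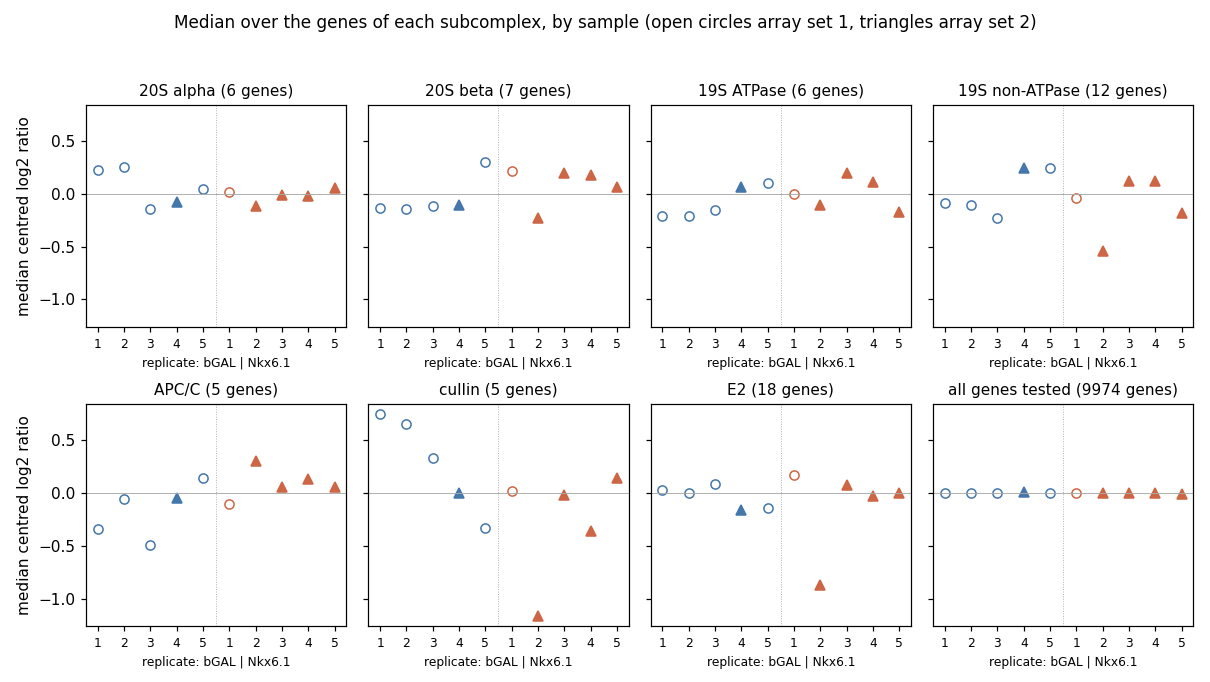
Median centred log2 ratio (y axis) over the genes of each subcomplex in every sample, with all 9974 genes tested in the last panel. Open circles are array set 1 and triangles array set 2. The 20S and 19S panels lie between −0.55 and 0.30 in all samples, and the cullin and E2 panels reach their lowest point in Nkx6.1 replicate 2.

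The 20S core was measured through 13 genes. The 6 alpha subunits, which form the gated outer rings, had a median log2 difference of −0.11 and ranged from −0.56 to 0.48. The 7 beta subunits, which include the catalytic ones, had a median of 0.14 and ranged from −0.12 to 0.62, with 6 above 0. Without Nkx6.1 replicate 2 the alpha and beta medians were −0.047 and 0.22. The intervals of 5 alpha and 6 beta subunits lay within 1 of 0 on the log2 scale, and none of the 13 passed.

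Psmb5 carries the chymotrypsin-like site, the main target of proteasome inhibitors. It stood at −0.31, −0.43, −0.15, −0.14 and −0.056 in bGAL replicates 1 to 5 and 0.22, 0.59, 0.20, 0.32 and 0.056 in Nkx6.1 replicates 1 to 5. The groups were separate, and the closest samples were bGAL replicate 5 and Nkx6.1 replicate 5. The log2 difference was 0.49 ± 0.16 (SE, 95% interval 0.14 to 0.85), or 1.41-fold, with limma adjusted p = 0.42, and it was 0.45 in array set 1 alone and 0.43 in array set 2 alone. Psma7, an alpha subunit, stood at −0.45, −0.26, −0.57, −0.38 and 0.037 in bGAL replicates 1 to 5 and 0.0036, 0.52, −0.0036, 0.18 and 0.061 in Nkx6.1 replicates 1 to 5. It had a difference of 0.48 ± 0.18 (SE, adjusted p = 0.48), with bGAL replicate 5 inside the Nkx6.1 range, and was 0.31 in array set 1 alone and 0.57 in array set 2 alone.

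Among the other catalytic subunits, Psmb6, with the caspase-like site, differed by 0.62 ± 0.44 on the log2 scale (SE, limma adjusted p = 0.59) and by 0.22 without Nkx6.1 replicate 2, and its 2 probes gave 0.26 and 0.98. Psmb7, with the trypsin-like site, differed by 0.16 ± 0.23 and the structural subunit Psmb1 by 0.14 ± 0.17 (SE, adjusted p = 0.77 and 0.73). Without Nkx6.1 replicate 2 they differed by 0.36 and 0.21 (limma adjusted p = 0.37 and 0.60). Psma3 and Psma5 differed by −0.56 and −0.32, and by −0.14 and −0.10 without Nkx6.1 replicate 2. Psma4 differed by −0.20, and by −0.30 without that sample, with opposite signs within the array sets (−0.66 in array set 1 alone and 0.28 in array set 2 alone).

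Interferon replaces the 3 catalytic subunits by Psmb8, Psmb9 and Psmb10 to form the immunoproteasome. The log2 difference of Psmb9 was 1.66 ± 0.31 and that of Psmb8 1.02 ± 0.20 (SE, limma adjusted p = 0.098 and 0.13), with 1.40 and 0.99 in array set 1 alone and 1.41 and 0.57 in array set 2 alone. Psmb10 differed by 0.0057 with a 95% interval of −0.61 to 0.62. Psmb10 stood between −0.13 and 0.100 in the bGAL samples, between −0.071 and 0.46 in 4 Nkx6.1 samples and at −1.04 in Nkx6.1 replicate 2, without which its difference was 0.26. Psme1, a subunit of the 11S activator that interferon induces with them, stood at −0.36, −0.082, −0.46, −0.016 and 0.32 in bGAL replicates 1 to 5 and −0.14, 2.98, 0.016, 0.17 and 0.21 in Nkx6.1 replicates 1 to 5. Its log2 difference of 0.77 ± 0.56 (SE, adjusted p = 0.60) was 0.18 without Nkx6.1 replicate 2, and 0.0044 in array set 1 alone and 0.86 in array set 2 alone.

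The 6 ATPases of the 19S base, which form the ring that unfolds substrates, ran from −0.34 to 0.68 in log2 difference, with a median of −0.049, and −0.019 without Nkx6.1 replicate 2. None passed, and 0 of 6 had an unadjusted limma p under 0.05. Psmc3 had the highest, 0.68 ± 0.34 (SE, limma adjusted p = 0.54), and 0.37 without Nkx6.1 replicate 2, which stood at 1.59. Psmc4 had a difference of 0.34 ± 0.21, Psmc2 one of −0.30 ± 0.27 and Psmc6 one of −0.34 ± 0.37 (SE). Without Nkx6.1 replicate 2 these were 0.21, −0.090 and −0.16. With all samples, Psmc2 and Psmc6 had opposite signs within the array sets (0.15 and 0.061 in array set 1, −0.60 and −0.11 in array set 2). Array set 2 holds Nkx6.1 replicate 2, which stood at −1.05 for Psmc2 and −0.91 for Psmc6. The values of Psmc6 were 0.67, 0.55, 0.70, −0.20 and −0.93 in bGAL replicates 1 to 5 and 0.31, −0.91, 0.15, −0.32 and −0.15 in Nkx6.1 replicates 1 to 5. They were high in bGAL replicates 1 to 3, the order seen in Cul5 and Cul4b, and low in bGAL replicate 5 and Nkx6.1 replicate 2.

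The 12 other 19S genes ran from −0.73 to 0.33, with a median log2 difference of −0.058, and 0.044 without Nkx6.1 replicate 2. Psmd5, an assembly chaperone of the 19S base, stood at 0.53, 0.23, 0.0027, 0.21 and −0.0027 in bGAL replicates 1 to 5 and −0.36, −1.78, 0.11, −0.32 and −0.35 in Nkx6.1 replicates 1 to 5. Nkx6.1 replicate 3 lay within the bGAL range and the other 4 Nkx6.1 samples below it. The log2 difference of −0.73 ± 0.33 (SE, limma adjusted p = 0.52) was −0.42 without Nkx6.1 replicate 2 and −0.55 in array set 1 alone and −0.79 in array set 2 alone.

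Psmd2, a scaffold of the base, had a difference of −0.58, and −0.16 without Nkx6.1 replicate 2, which stood at −2.06. The ubiquitin receptor gene Psmd4 differed by 0.33, and by 0.088 without that sample. Psmd6, a lid subunit, differed by −0.42, and by −0.038 with a term for the array set. For Psmd9, an assembly chaperone also known in rat β cells as the insulin gene coactivator Bridge-1, the mean of 3 probes differed by 0.081 ± 0.29 (SE, limma adjusted p = 0.91) and by 0.19 without Nkx6.1 replicate 2. The 3 probes gave 0.11, −0.098 and 0.23, and the one below 0 stood at a floor value of −0.31 in 4 of 10 samples. Psmd9 was named after its values were seen.

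Of 14 measured assembly factors, associated enzymes and shuttle proteins of the proteasome, 7 were above 0, none passed with limma and none had an unadjusted p under 0.05. Their median log2 difference was −0.077. Those with the smallest p were the deubiquitinase gene Usp14 with −0.89 ± 0.55, the cofactor gene Nsfl1c with 0.60 ± 0.38 and the shuttle gene Rad23b with −0.68 ± 0.46 (SE, adjusted p = 0.57, 0.57 and 0.58). Without Nkx6.1 replicate 2, which stood at −2.09, 1.78 and −2.16, they were −0.51, 0.25 and −0.32. For Rad23b all samples of array set 1 stood at one value of 0.23, so that set gives no information on its difference. In array set 2 alone its difference was 0.18.

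**Figure D4:**
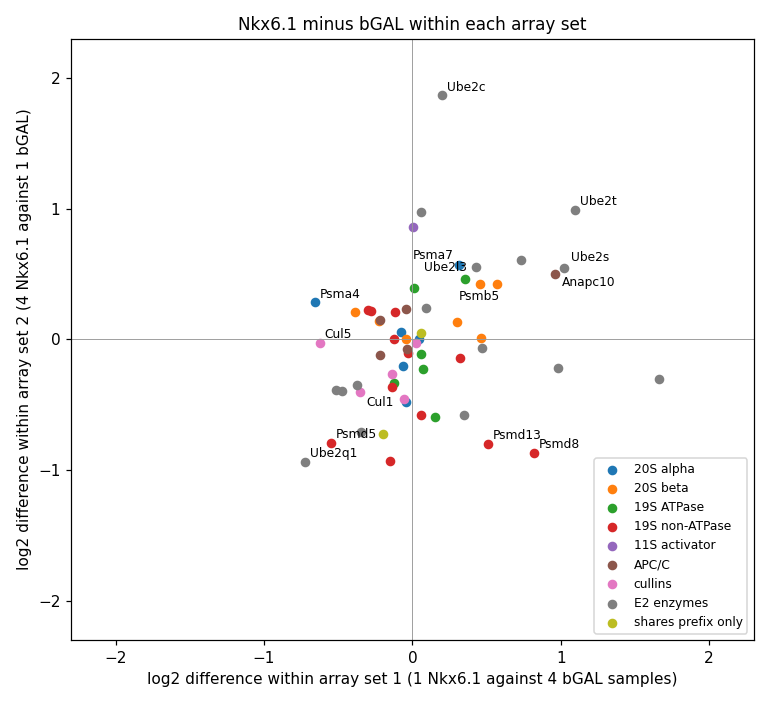
Log2 difference (Nkx6.1 minus bGAL) of the genes within array set 1 (x axis, 1 Nkx6.1 against 4 bGAL samples) and within array set 2 (y axis, 4 against 1), coloured by subcomplex. Ube2t lies at the upper right with about 1 on both axes and Ube2q1 and Psmd5 at the lower left, while Psmd8 and Psmd13 differ in sign. Ube2e3 and Ube2q2 lie outside the axes, so 60 genes are shown.

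Within the array sets, 39 of the 62 genes and 5371 of all 9974 had the same sign in both, and over the 20S and 19S genes 16 of 31 did. Ube2t was near 1 in both sets. Psmd8 and Psmd13, 19S lid genes named after their values were seen, had differences of 0.82 and 0.51 in array set 1 and −0.87 and −0.80 in array set 2. Over all samples they were −0.023 and −0.25, and without Nkx6.1 replicate 2 0.47 and 0.049. Each set holds 1 sample of a group, so these values have no error of their own.

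The rule left out 9 genes for too few values. Just outside it were Anapc7 and Ube2g1, with 2 bGAL values each and 5 and 4 Nkx6.1 values, and all 62 genes inside it had 5 values in each group. Anapc7 stood between −0.76 and 0.22 in the Nkx6.1 samples and at 0.064 in bGAL replicate 4. Psme2, Cul3, Psmd14, Ube2n, Ube2o and Ube2z had a single bGAL value each and Psmb11, a subunit known from the thymus, had none, so no difference was computed for them.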

How the data were processed

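Islet RNA of 10 samples, 5 per virus, was measured on spotted 2-colour arrays scanned on a GenePix scanner, with the virus and the replicate number given by each title. The authors deposited log2 ratios to a common reference RNA; for background, dye bias and weak spots, the handling was not given in the sources used here. All 17744 complete probes were centred, with their median over samples within 0.001 of 0. Base 2 was inferred from 103 values that lay 13.29, the log2 of 10000, above the value a probe shared in 3 or more samples. Array medians lay between −0.0028 and 0, and Pearson's r between arrays was −0.13 to 0.48 across centred probes. The direction is likely islet over reference. Values shared by 3 or more samples (to 4 decimals) were taken as a floor with a ratio of 1. Array set 2 lay above it for 4 of 4 acinar probes and for 1 of 6 mitosis and 0 of 2 DNA replication probes. Over all complete probes with a floor it lay above for 3974 of 7209. Other cell type lists were mixed, with islet endocrine 1 of 1, neuronal and secretory 2 of 3, and stellate and fibroblast 2 of 4. Endothelial probes gave 1 of 2, duct 0 of 1, and macrophage and leukocyte 0 of 3.

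Of 26962 probes besides 22 controls, 15807 had a single symbol in the platform annotation and 11155 had none. Symbols were brought to GRCr8 RefSeq names (12034 current, 3713 updated through a unique synonym, 60 kept). Probes of a gene were averaged, and genes with at least 3 values per group were fitted with limma 3.58.1 in R 4.3.3 (lmFit and eBayes, two-sided), with Benjamini-Hochberg adjustment over all 9974 genes and a threshold of 0.05. Array set 1 was defined as samples missing more than 20% of probes, a split found from the values. Subcomplex medians are descriptions without a test. The number of arrays limits the precision.

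The genes and lists were chosen with earlier results of these data known. Genes were named by a rule: those past the threshold, the 4 with the smallest p per subcomplex, and 16 fixed by name, 8 of which were not tested. From each other list of the pathway the 3 with the smallest p were named. Psmc3ip and Ube2cbp, placed by prefix with the 19S ATPases and the E2 enzymes in the planned grouping, were kept apart. Alternatives were another normalisation, array weights, a replicate block, an array set term, other filters and probe choices, and leaving out each sample. The fit was tested on simulated data. Python 3.11.15, pandas 2.3.3, numpy 2.4.6 and matplotlib 3.10.9 made tables and plots. Columns of sample values left unused numbered 0.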

Additional observations from a re-analysis of the deposited data

Results flagged for a closer look

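Within each group of 5 samples, the values of the 33 named genes were searched for a sample that stood apart from the rest by Dixon's test. Chance gives about 1 such sample in 20 groups, and 11 of 66 groups held one. In all 11 it was Nkx6.1 replicate 2, and the direction differed between genes. It stood low for Ube2m at −2.79, Psma3 at −2.18, Psmd2 at −2.06, Ube2q1 at −2.03, Psmd5 at −1.78, Psma5 at −1.09 and Psmb7 at −0.79. It stood high for Psme1 at 2.98, Psmc3 at 1.59, Anapc5 at 1.52 and Ube2t at 1.09. The interquartile range of all probes was 1.09 on the log2 scale in this sample and 0.35 to 0.58 in the others. Its part in these values was not tested beyond leaving it out.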

How the results depend on the processing

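Against 0 of the 62 genes with the values as deposited, 4 passed with array weights (Ube2t, Ube2l3 and Psmb5 higher, Ube2q1 lower). Under that setting 577 of all 9974 genes and 1389 of 18546 probes passed. An unadjusted limma p under 0.05 was then held by 32.3% of the 62 and 29.1% of all genes. Leaving out single samples gave 0 or 1 of the 62, the 1 being Ube2t without Nkx6.1 replicate 2, and 0 passed under the other planned settings. Over all genes 15 passed (15 probes); 27 genes and 26 probes did with quantile normalisation, 3 genes and 0 probes with the array set term (506 genes and 842 probes at an unadjusted limma p under 0.05), and 2 to 36 genes and 2 to 42 probes with a sample left out. Without any 1 of bGAL replicates 1, 2, 3 and 5 and Nkx6.1 replicates 3, 4 and 5 the gene count was 2 to 6, and without Nkx6.1 replicate 2 it was 36. Correlations of same-numbered samples across genes were 0.17 and 0.18 for replicates 1 and 4, whose samples share an array set. They were −0.10 to −0.013 for replicates 2, 3 and 5, whose samples do not. Not every sample correlated best with its own number. Because of the array sets, these correlations cannot show whether the replicate numbers pair the samples. With the replicate block limma called 0 genes and 0 probes (811 and 1413 at an unadjusted p under 0.05). Of the 62 genes, 6 were at an unadjusted limma p under 0.05 with that block. The median of the 20S alpha genes was 0.031 within array set 2, that of the 19S ATPases 0.11 with array weights, and that of the E2 enzymes 0.29 with the array set term and 0.30 within array set 1; with Psmc3ip and Ube2cbp counted in, an alternative chosen after seeing the data, the 19S ATPase median was −0.072 and the E2 median −0.074. The sign of the log2 difference held in all refits over the whole set of samples or with 1 left out for 28 of 33 named genes. It turned for Anapc1 (0.0057 with quantile normalisation, 0.15 with array weights), Ube2m (0.23 and 0.61 with the same), Anapc2 (−0.056) and Psmb10 (−0.023) with the array set term. With a sample left out the ranges were −0.28 to 0.13 for Anapc1, −0.34 to 0.42 for Ube2m, −0.0092 to 0.27 for Anapc2, −0.11 to 0.26 for Psmb10 and −0.35 to 0.023 for Ube2d1. The cause of these changes was not tested. Other probe filters moved no subcomplex median by more than the spread between replicates.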

Other observations

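Ubiquitin-like proteins and ligases outside the groups above were measured too. Isg15, the interferon-induced ubiquitin-like modifier, differed by 1.42 ± 0.45 in log2 ratio (SE, limma adjusted p = 0.39), with 3 bGAL samples at one value of −0.83 and Nkx6.1 replicates 1, 3 and 4 between 1.34 and 1.82, but Nkx6.1 replicate 2 at −0.57 within the bGAL range. It was 2.36 in array set 1 alone and 1.01 in array set 2 alone. Rnf4, a ligase that acts on SUMO-modified proteins, stood at −0.50, −0.41, −0.33, −0.14 and −0.68 in bGAL replicates 1 to 5 and 0.55, 0.53, 0.14, 0.40 and 0.25 in Nkx6.1 replicates 1 to 5. The groups did not overlap, as held upward for 2.02% of all genes tested. Rnf4 had the smallest p in its list of ligases. Its log2 difference was 0.78 ± 0.16 (SE, limma adjusted p = 0.15), and 1.02 in array set 1 alone and 0.47 in array set 2 alone. Of 17 measured ligases outside the cullin and APC/C classes, 8 were above 0 and none passed with limma, and 2 had an unadjusted p under 0.05, both higher (Rnf4 and Smurf1).

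Of 5 measured genes for ubiquitin, SUMO and their activating enzymes, 2 were above 0 and none passed with limma, with 1 in each direction at an unadjusted p under 0.05. The lower was Uba6, an activating enzyme for ubiquitin, at 1.46 to 2.39 in bGAL replicates 1 to 3 and −0.018 and −0.60 in bGAL replicates 4 and 5, an order also seen in Cul5, Cul4b and Psmc6. Its log2 difference was −1.53 ± 0.61 (SE, limma adjusted p = 0.50). Ube2n, the active partner of Ube2v2, had too few values for a test and stood at 15.3 in Nkx6.1 replicate 2 and between −2.71 and 0.41 in the 4 other samples with a value.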
